A study of Homo sapiens with 3 samples.

Results

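The genes described here are enzymes that add double bonds to fatty acids, lengthen them or couple them to coenzyme A. The list holds 10 genes: the desaturases FADS1, FADS2, FADS3 and SCD, the elongases ELOVL1, ELOVL5, ELOVL6 and ELOVL7, and the acyl-CoA ligases ACSL1 and ACSL3. All probes that the platform annotation assigned to these symbols were used. This gave 10 probes for 9 genes, out of 47315 probes and 20043 gene symbols on the array. ELOVL6 had 2 probes and the other 8 genes had 1 each. No probe was assigned to ACSL3, which was not analysed here. FADS2 had a probe that was undetected on all arrays, so 8 genes, represented by 9 probes, were measured.

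Free fatty acids have little use in a cell until an acyl-CoA ligase has joined them to coenzyme A. The acyl-CoA can then be burned, stored, built into membrane lipids, desaturated or elongated. SCD and ELOVL6 act mainly on saturated products of fatty acid synthase, whereas FADS2, ELOVL5 and FADS1 act in sequence on essential fatty acids and lead to long polyunsaturated ones such as arachidonic acid. The transcription factor SREBP-1 drives many of these genes in liver and in lipogenic tumours, and mammary epithelium uses them to make milk fat.

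HCC1937 is an established human line from a breast ductal carcinoma, and the labels class it as basal. The culture medium, DMEM, held glucose at 3 mM and glutamine at 0.5 mM, and total RNA was hybridised to 3 Illumina bead arrays. The groups were untreated cells, cells treated for 16 h with 200 nM dexamethasone, a synthetic agonist of the glucocorticoid receptor, and cells treated for 16 h with 200 nM dexamethasone and 1 µM retinoic acid, the ligand of the retinoic acid receptors. Each group had 1 array. Retinoic acid alone was not analysed here, and the labels name no vehicle for the untreated cells.

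With 1 array per group no difference has a replicate check, no test was possible and no p-value is given for a difference. The bead standard error (SE) beside a value covers the spread between the beads of a probe within an array, and nothing between cultures. An intensity is the mean over the beads of a probe as deposited, before any correction. Normalized values are on a log2 scale after background correction and quantile normalization, and every difference and fold below comes from them unless another scale is named. The words "called higher" and "called lower" stand for a normalized difference of at least 1 on the log2 scale, which is 2-fold. A probe was taken as detected at a deposited detection p-value under 0.01. These p-values move in steps of 1 in 770, and an entry of 0 is below the first step. Levels of different probes cannot be set against each other.

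The arrays had median intensities of 131.6 to 159.0 and 16635 to 17091 detected probes. The untreated and combination arrays shared a slide, and the dexamethasone array lay on another, so slide and treatment cannot be told apart in the 2 comparisons that use it. The RNA came from whole cultures, in which a smaller share of expressing cells and less RNA per cell cannot be told apart. Known responses were present on the treated arrays. FKBP5, a glucocorticoid-induced co-chaperone, had intensities of 856.2, 10500 and 9172 on the untreated, dexamethasone and combination arrays, and CYP26A1, the retinoic acid hydroxylase, was detected on the combination array alone at 6160. The basal label is only partly matched by markers. The basal keratin KRT14 was undetected on all 3 arrays and KRT5 was detected on the dexamethasone array alone, whereas the basal markers CDH3, EGFR, LAMB3 and SNAI2 and the luminal genes ESR1 and GATA3 were detected on all 3. The identity of the line was not tested.

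The desaturases split into a gene with a large difference, a dim one, an undetected one and a very bright one with a smaller difference. FADS1, which makes arachidonic acid from its precursor, had intensities of 595.5 (bead SE 17.31) on the untreated array, 3222 (107.8) on the dexamethasone array and 4126 (143.6) on the combination array. Both treated arrays were far above the untreated one. After normalization FADS1 was 4.61-fold higher with dexamethasone than without (log2 difference 2.21, bead SE 0.07) and 4.57-fold higher with the combination (2.19, bead SE 0.07). The treated arrays differed from each other by -0.01 (bead SE 0.07), so the FADS1 signal was as high with dexamethasone as with both agents.

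FADS2, the desaturase of the entry step into the same pathway, gave intensities of 140.4 (bead SE 4.83), 166.3 (5.73) and 167.1 (6.71) in the order untreated, dexamethasone and combination. Its detection p-values were 0.048, 0.0169 and 0.0455, so it missed the limit of 0.01 on each array and would pass one of 0.05 on each. At that looser limit its normalized differences were 0.16 for dexamethasone and -0.14 for the combination against untreated, and -0.30 between the treated arrays. The lowest detected intensities of the arrays were 146.4, 168.4 and 184.8, just above these values. A difference in FADS2 was not detectable at this signal over background, and its single probe gives no second reading.

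FADS1 and FADS2 are neighbours on opposite strands. The minus-strand FADS1 starts at the higher coordinate, so from the annotated starts each gene is read towards the start of the other. In the RefSeq promoter table of build GRCh38.p14 their annotated starts lie 599 bases apart, counted from the FADS2 start that is closer to FADS1. Both windows are shown because a detected gene with a large difference and an undetected one face each other here. Each runs from 250 bases before to 50 bases after the start, 5′ to 3′ on the strand of the gene. Capitals mark every match, on either strand, of 6 short motifs named with the promoter results further on. The FADS1 window is chr11:61816954-61817253 on the minus strand and the FADS2 window is chr11:61816154-61816453 on the plus strand.
FADS1: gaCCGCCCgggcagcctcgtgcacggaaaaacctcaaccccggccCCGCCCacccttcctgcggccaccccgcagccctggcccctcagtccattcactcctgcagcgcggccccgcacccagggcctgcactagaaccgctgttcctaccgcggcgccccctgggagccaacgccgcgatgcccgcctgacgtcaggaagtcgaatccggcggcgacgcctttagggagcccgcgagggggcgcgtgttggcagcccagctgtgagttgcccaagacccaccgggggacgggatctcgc
FADS2: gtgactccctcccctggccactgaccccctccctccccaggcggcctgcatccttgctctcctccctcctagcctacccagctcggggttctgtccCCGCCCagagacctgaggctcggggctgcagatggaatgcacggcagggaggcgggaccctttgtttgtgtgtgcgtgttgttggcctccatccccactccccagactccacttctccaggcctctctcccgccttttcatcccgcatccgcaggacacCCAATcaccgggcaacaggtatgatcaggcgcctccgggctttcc

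FADS3, a desaturase of the sphingoid bases of ceramides, was close to the detection limit in untreated cells. Its intensities were 149.9 (bead SE 6.24) on the untreated array, 353.9 (20.0) with dexamethasone and 279.3 (16.4) with the combination. The treated arrays were again the higher ones, with dexamethasone alone on top. The fold was 4.36 for dexamethasone (log2 difference 2.13, bead SE 0.24) and 2.26 for the combination (1.18, bead SE 0.26). In the authors' normalized table, which looks to keep the background, the same probe differed by 0.94 and 0.43 on the log2 scale, short of 2-fold. Between the treated arrays FADS3 differed by -0.95 (bead SE 0.20), just short of 2-fold.

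SCD, which makes oleic acid from stearic acid, was bright on every array, at 9014 (bead SE 198.0) untreated, 7224 (191.1) with dexamethasone and 13160 (275.4) with the combination. It was the bright desaturase that was not higher with dexamethasone. Its normalized value was lower by 0.64 (bead SE 0.05) on the dexamethasone array, within 2-fold. With the combination it differed from untreated by -0.02 (bead SE 0.04), although the unscaled intensity was 1.46 times as high there. The combination array was brighter as a whole, with the highest median of the 3.

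The elongases went in opposite directions. ELOVL5, which lengthens polyunsaturated fatty acids between the FADS2 and FADS1 steps, had the largest difference from untreated among the elongases with the combination. With dexamethasone the ELOVL5 difference was similar in size to that of ELOVL6, which went the other way. The ELOVL5 intensities were 960.6 (bead SE 32.5), 3356 (127.0) and 8596 (255.1) on the untreated, dexamethasone and combination arrays. Each step of this order was higher than the one before. ELOVL5 was 2.88-fold higher with dexamethasone (log2 difference 1.53, bead SE 0.08), 5.80-fold higher with the combination (2.54, bead SE 0.07) and 2.01-fold higher with the combination than with dexamethasone (1.01, bead SE 0.07). The last of these lies at the edge of the 2-fold rule.

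ELOVL6, which extends palmitic to stearic acid and so supplies SCD, was lower with dexamethasone. Its brighter probe had intensities of 938.4 (bead SE 25.2) untreated, 530.7 (15.4) with dexamethasone and 1128 (35.4) with the combination. The other probe had 366.6 (11.8), 251.1 (7.44) and 510.3 (27.0). On both probes the dexamethasone array was the lowest of the 3. ELOVL6 was 2.72-fold lower with dexamethasone on the brighter probe (log2 difference -1.45, bead SE 0.07) and 2.88-fold lower on the other (-1.52, bead SE 0.10). With the combination it differed from untreated by -0.58 (bead SE 0.07) and -0.33 (bead SE 0.12), within 2-fold. Between the treated arrays the probes lay on different sides of the rule, at 0.87 (bead SE 0.07) and 1.19 (bead SE 0.13), both higher with the combination.

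The promoter windows of ELOVL5 and ELOVL6 are shown because these elongases differed in opposite directions with dexamethasone. They are chr6:53348901-53349200 and chr4:110198566-110198865 of GRCh38.p14, both on the minus strand, printed by the same rules.
ELOVL5: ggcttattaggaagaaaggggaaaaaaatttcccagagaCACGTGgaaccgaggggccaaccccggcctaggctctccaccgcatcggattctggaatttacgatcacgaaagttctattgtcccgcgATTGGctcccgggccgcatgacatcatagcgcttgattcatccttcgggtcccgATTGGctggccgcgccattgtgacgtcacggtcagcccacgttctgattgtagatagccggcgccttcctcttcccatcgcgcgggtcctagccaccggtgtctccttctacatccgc
ELOVL6: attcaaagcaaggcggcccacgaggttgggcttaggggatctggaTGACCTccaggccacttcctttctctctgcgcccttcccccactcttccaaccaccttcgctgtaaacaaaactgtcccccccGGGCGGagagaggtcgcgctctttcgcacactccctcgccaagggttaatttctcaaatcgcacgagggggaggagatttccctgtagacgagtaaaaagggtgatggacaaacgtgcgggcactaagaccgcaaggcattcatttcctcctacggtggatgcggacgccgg

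ELOVL7, an elongase of saturated and monounsaturated long chains, was dimmer. It gave 227.8 (bead SE 7.23) untreated, 199.9 (6.94) with dexamethasone and 380.9 (16.5) with the combination. The dexamethasone array was the lowest here too. ELOVL7 was 2.21-fold lower with dexamethasone (log2 difference -1.14, bead SE 0.15), differed by 0.20 (bead SE 0.13) between the combination and untreated arrays, and was 2.54-fold higher with the combination than with dexamethasone (1.34, bead SE 0.16). ELOVL1, which makes very long saturated chains for sphingolipids, was highest with dexamethasone alone. Its intensities were 356.5 (bead SE 16.8), 824.2 (43.8) and 681.1 (28.4). It was 2.03-fold higher with dexamethasone (1.02, bead SE 0.13), differed by 0.26 (bead SE 0.12) with the combination and by -0.76 (bead SE 0.12) between the treated arrays.

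ACSL1, the ligase that activates long-chain fatty acids in liver, fat and muscle and is also found in many epithelia, had the largest differences from untreated among the 8 measured genes. Its intensity was 281.0 (bead SE 12.9) on the untreated array, 2071 (61.7) on the dexamethasone array and 3812 (185.6) on the combination array. The order matched that of ELOVL5. ACSL1 was 8.16-fold higher with dexamethasone (log2 difference 3.03, bead SE 0.12), the 50th highest difference of 10852 measured genes, and 11.8-fold higher with the combination (3.56, bead SE 0.13), the 26th highest of 10705. Between the treated arrays it differed by 0.53 (bead SE 0.09), within 2-fold. FADS1 stood at places 114 and 113 in the same order, and ELOVL5 at 263 and 74.

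**Figure D1:**
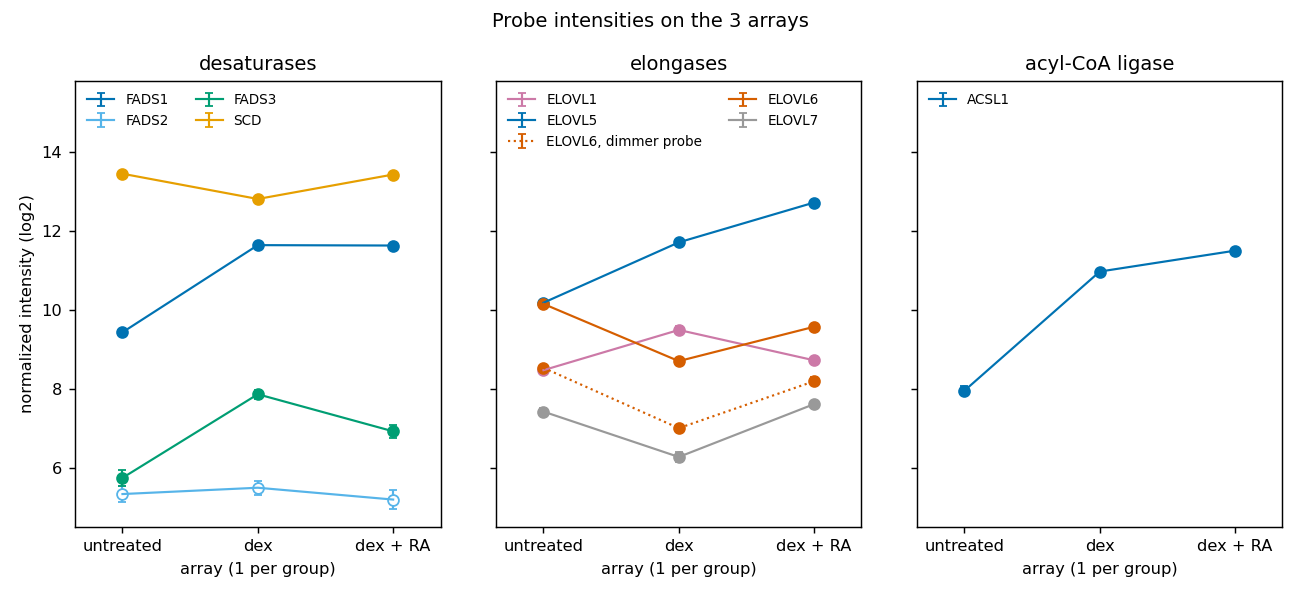
Normalized intensity (log2, vertical axis) of each probe on the untreated, dexamethasone (dex) and dexamethasone plus retinoic acid (dex + RA) arrays, 1 array each. Bars are bead SEs, open circles are undetected probes, lines only join the values of a probe, and heights of different probes are not comparable. FADS1, ELOVL5 and ACSL1 are higher on both treated arrays, ELOVL6 and ELOVL7 are lowest with dexamethasone, and FADS2 is undetected throughout.

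The first comparison, dexamethasone against untreated, asks what the glucocorticoid does to these enzymes. Of the 8 measured genes, 5 were called higher (FADS1, FADS3, ELOVL1, ELOVL5 and ACSL1) and 2 lower (ELOVL6 and ELOVL7), and SCD was within 2-fold. Of all 10852 measured genes, 5.73% were called higher and 4.57% lower. The median difference of the 8 genes was 1.27, against 0.00 for all measured genes. The list was chosen with earlier results of these arrays known, so these shares describe the list and do not set it apart from other genes.

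The second comparison sets the combination against untreated cells and stays within a slide. Here 4 of 8 were called higher (FADS1, FADS3, ELOVL5 and ACSL1) and 0 lower. In the whole set of 10705 genes 5.84% were called higher and 5.43% lower. The median difference was 0.72 for the 8 genes and -0.01 for all. It was 0.34 without background correction, 0.31 in the authors' normalized values and 0.26 once FADS2 was let in by a looser detection limit or by none. ELOVL1, ELOVL6 and ELOVL7, called with dexamethasone, were within 2-fold here, at 0.26, -0.58 and 0.20. This comparison shares its untreated array with the first, so the values are not independent of those above.

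The third comparison, the combination against dexamethasone, asks what retinoic acid adds. It called 2 of 8 higher (ELOVL5 and ELOVL7) and 0 lower, where 2.99% of 10734 genes were called higher and 3.58% lower. The median was 0.58 for the 8 genes and -0.01 for all. With arrays scaled to the 75th percentile of detected probes in place of quantile normalization, 31.2% rather than 45.5% of all calls were higher and the median of all genes was -0.10. Under that scaling ELOVL5 differed by 0.97 and was no longer called, and FADS3 differed by -1.06 and was called lower. SCD, ELOVL6 and ACSL1 had positive values of 0.63, 0.87 and 0.53 in this comparison, short of the rule.

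**Figure D2:**
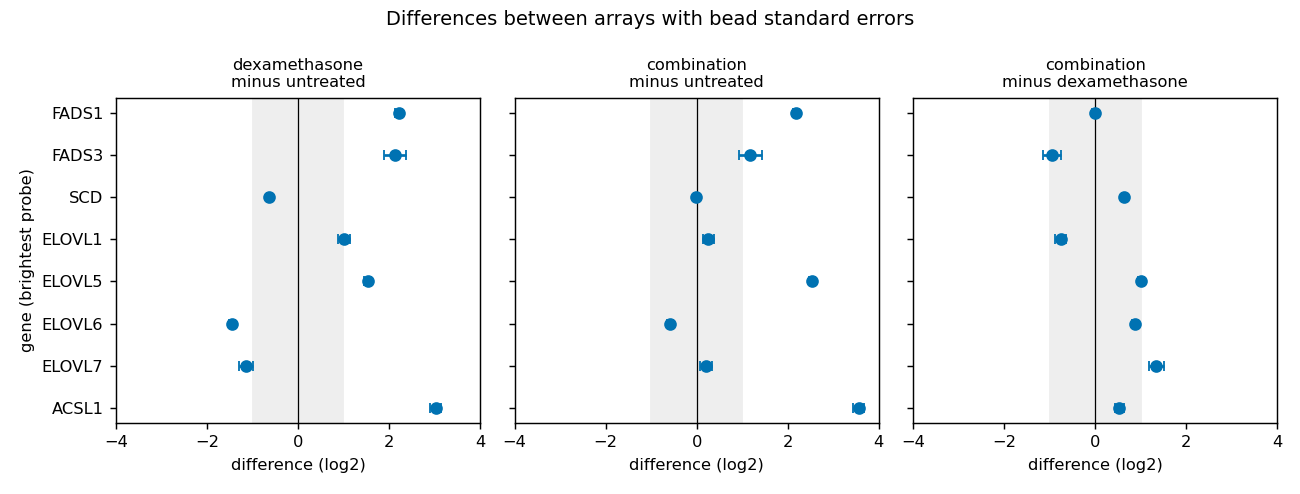
Difference between arrays (log2, horizontal axis) for the brightest probe of the 8 measured genes in the 3 comparisons, where combination means dexamethasone plus retinoic acid. Bars are bead SEs of the difference and the grey band is the range within 2-fold. ACSL1 lies farthest right against untreated, at 3.03 and 3.56, and ELOVL6 farthest left with dexamethasone, at -1.45.

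The calls were not equally firm. Of the 13 calls in the 3 comparisons, those of FADS1, ELOVL5 and ACSL1 against untreated and of ELOVL6 with dexamethasone stayed past 2-fold under all 10 alternative ways of processing. The ACSL1 difference ranged from 2.51 to 3.08 with dexamethasone and from 3.02 to 3.64 with the combination, and that of FADS1 from 2.03 to 2.27 and from 2.02 to 2.27. Other calls held under fewer alternatives. The alternatives for detection, bounds and choice of probes could not move a gene with a single probe detected on both arrays. The tallies below include these settings, which could not fail. Under the settings for background and scaling, the authors' values included, FADS3 with the combination gave 0.48, 0.83, 1.01, 0.43 and 0.95. ELOVL7 ranged from -1.14 to -0.51 with dexamethasone and passed in 7 of 10, FADS3 ranged from 0.43 to 1.18 with the combination and passed in 6 of 10, and ELOVL1 ranged from 0.80 to 1.09 with dexamethasone and passed in 7 of 10.

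**Figure D3:**
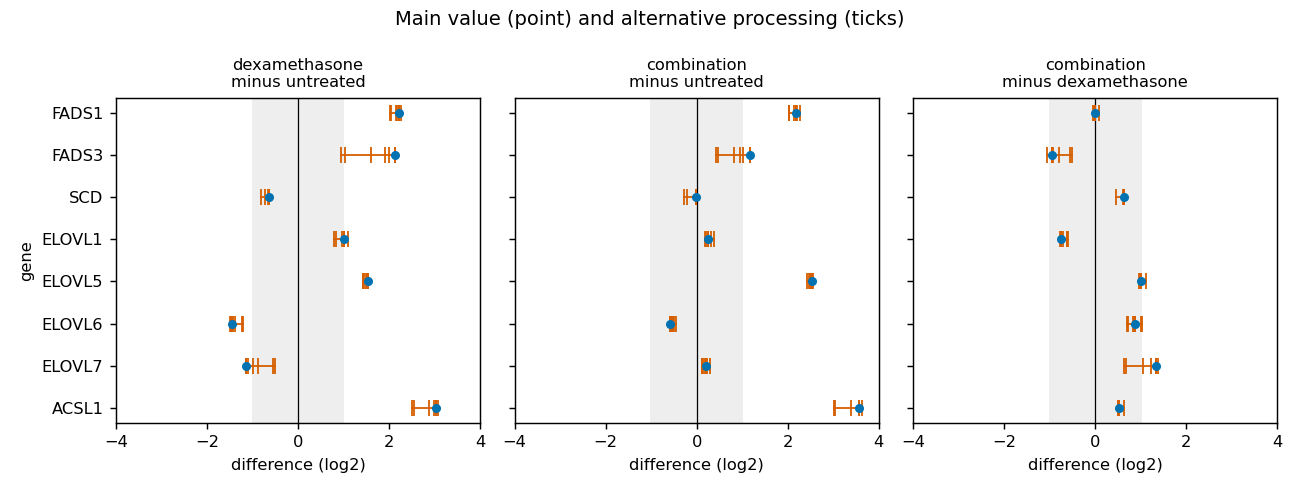
Difference between arrays (log2, horizontal axis) for each gene as reported (points) and under the 10 alternatives (ticks joined by a line), with the range within 2-fold in grey. The ticks of FADS1, ELOVL5 and ACSL1 stay outside the band in both comparisons with untreated cells, while those of FADS3 spread from 0.94 to 2.13 with dexamethasone.

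Other genes of the pathway were taken from 5 lists, whose counts are to be read against the shares of all genes above, 5.73% higher and 4.57% lower with dexamethasone. Of the other desaturases, elongases and partners of the elongation cycle, 16 were measured against untreated, and 0 were called higher and 1 lower with dexamethasone (median -0.03). The 1 was DEGS1, which desaturates dihydroceramide, at 2.01-fold lower (bead SE 0.06 on the log2 scale), with a log2 difference of -1.43 on its other probe. With the combination 0 of 16 were called (median 0.02), and 0 of 15 between the treated arrays (median 0.36). HSD17B12, the ketoacyl-CoA reductase of the elongation cycle, differed by -0.11, 0.82 and 0.92 in the order of the comparisons, and TECR, the enoyl-CoA reductase that completes the cycle, by 0.08, -0.18 and -0.25. Both stayed within 2-fold in all 3 comparisons.

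Among the other acyl-CoA ligases, fatty acid transport proteins and thioesterases, 2 of 20 were called higher and 2 lower with dexamethasone (median -0.08). ACSF2, a medium-chain ligase of mitochondria, was 3.08-fold higher (1.62, bead SE 0.18), and ACOT8, a peroxisomal thioesterase, 2.62-fold higher (1.39, bead SE 0.24). ACOT8 had an intensity of 149.5 untreated, close to that array's lowest detected intensity of 146.4. The count called higher with dexamethasone ranged from 0 to 2 under the alternatives. The transport proteins SLC27A3 and SLC27A2, which also have ligase activity, were 2.74-fold and 2.11-fold lower. With the combination 1 of 20 was higher, ACSL4, the ligase that prefers arachidonic acid, at 2.12-fold (1.08, bead SE 0.14), and 2 were lower (median -0.04), SLC27A3 at 3.15-fold and ACSS1, a mitochondrial acetyl-CoA synthetase, at 2.66-fold. ACSL4 differed by 0.68 with dexamethasone and ACSL5 by 0.30 and 0.36 in the 2 comparisons with untreated. Between the treated arrays SLC27A2 was 3.61-fold higher and ACSS1 3.61-fold lower with the combination, the 1 higher and 1 lower of 19 (median 0.03). ACSS1 had an intensity of 190.7 with the combination, close to that array's lowest detected intensity of 184.8. Under the alternatives the count called lower ranged from 1 to 2 with the combination and from 0 to 2 between the treated arrays.

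In fatty acid synthesis 9 genes were measured. With dexamethasone 1 was higher, IDH1, a source of cytosolic NADPH, at 2.53-fold (1.34, bead SE 0.07, and 0.92 on its other probe). The 1 lower was ACACB, the acetyl-CoA carboxylase at mitochondria, at 4.57-fold (-2.19, bead SE 0.19). ACACB had an intensity of 262.9 untreated and 170.0 with dexamethasone, close to that array's lowest detected intensity of 168.4. The count called lower with dexamethasone ranged from 0 to 2 under the alternatives. FASN, the fatty acid synthase, differed by 0.89 and 0.85 against untreated, ACACA, the cytosolic carboxylase, by -0.09 and 0.06. FASN thus lay short of the rule on both treated arrays. With the combination 3 were higher, IDH1 at 4.89-fold, MID1IP1, an activator of acetyl-CoA carboxylase, at 2.61-fold and the NADPH-producing malic enzyme ME1 at 2.24-fold, and 2 lower, ACACB at least 4.48-fold and the citrate carrier SLC25A1 at 2.56-fold. "At least" is used since ACACB was undetected on the combination array and was set to that array's lowest detected value. The bound applies to normalized values, and the unscaled intensities were 262.9 untreated and 158.3 with the combination. The count called lower with the combination ranged from 1 to 2 under the alternatives. ME1 and MID1IP1 were also the 2 of 9 called higher between the treated arrays, at 2.23-fold and 2.17-fold, with 0 lower. The medians were 0.01, 0.06 and 0.00.

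Of 12 measured regulators, 0 were called higher and 2 lower with dexamethasone (median -0.27): INSIG1, which retains the SREBP complex in the endoplasmic reticulum and is itself an SREBP target, at 2.46-fold on both of its probes (-1.30 and -1.30), and NR1H3, the liver X receptor alpha, at 2.09-fold. With the combination NR1H3 was 2.10-fold lower, the 1 of 12 called (median -0.21), and INSIG1 differed by -0.57. SREBF1, the gene of SREBP-1, differed by -0.35 and 0.03 on its brighter probe and by -0.34 and -0.42 on the other. Between the treated arrays 1 of 11 was lower, the fatty acid receptor PPARD at 2.59-fold (median 0.05). The count ranged from 0 to 1 under the alternatives. PPARD had intensities of 278.9 with dexamethasone and 199.1 with the combination, the latter close to that array's lowest detected intensity of 184.8. Its other probe was undetected on both treated arrays. With dexamethasone against untreated the 2 PPARD probes disagreed in direction, at 0.79 and -0.34. MBTPS1, a protease that cleaves SREBP, differed by 0.32 with dexamethasone on its brighter probe and by 1.08 on the other. With the detection limit loosened or dropped, or no bound on undetected values, 1 regulator was called higher with dexamethasone. Between the treated arrays INSIG1 differed by 0.72 and 1.01 on its 2 probes, and SREBF1 by 0.37 and -0.08.

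The acyltransferases that use acyl-CoA had 16 measured genes and 0 lower in each comparison. LPIN1, a phosphatidate phosphatase of triglyceride synthesis listed with them, was 2.57-fold higher with dexamethasone (1.36, bead SE 0.07) and 2.08-fold higher with the combination. MBOAT1, a lysophospholipid acyltransferase, differed by -0.44 with dexamethasone, was 4.09-fold higher with the combination (2.03, bead SE 0.09) and 5.54-fold higher with the combination than with dexamethasone (2.47, bead SE 0.14). The counts of higher genes were 1, 2 and 1, and the medians -0.27, -0.03 and 0.15.

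**Figure D4:**
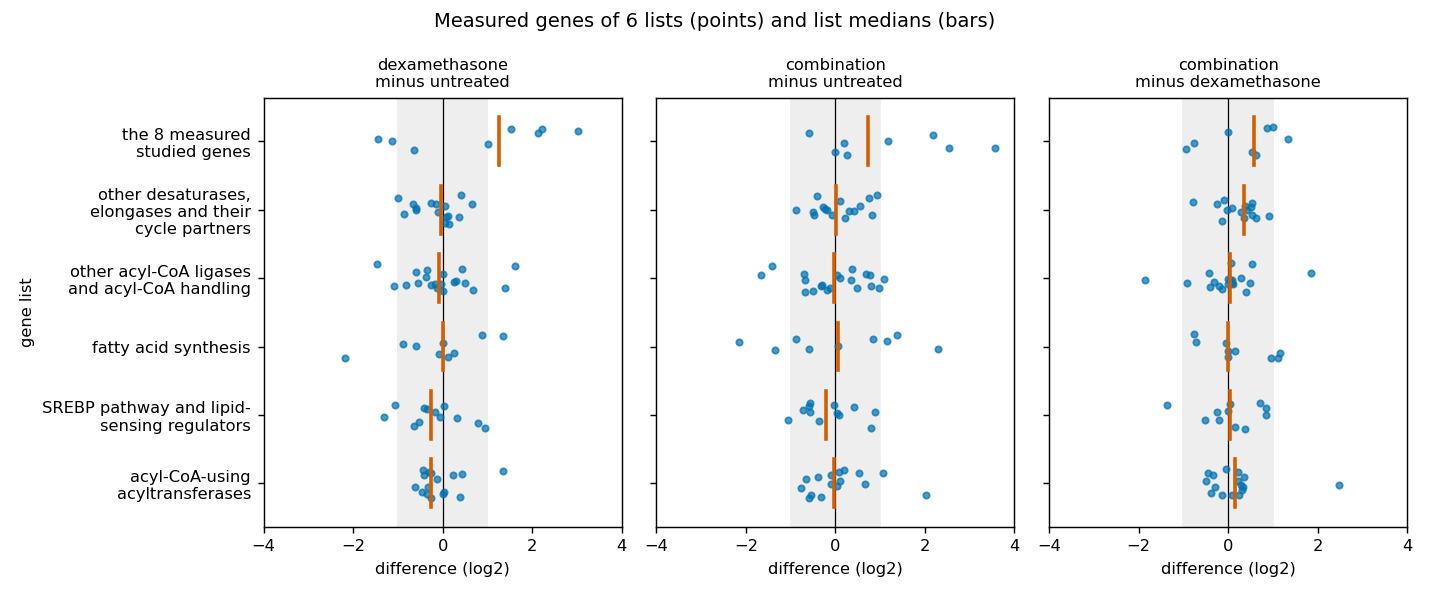
Difference between arrays (log2, horizontal axis) of every measured gene in 6 lists (points, spread vertically for legibility) with the list median (bar), in the 3 comparisons, with the range within 2-fold in grey. The 8 measured genes of this report have medians of 1.27, 0.72 and 0.58, and the medians of the other 5 lists lie between -0.27 and 0.36.

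Markers of cell state differed between the same arrays. Of 8 basal markers with a probe, 4, 7 and 5 were detected on the untreated, dexamethasone and combination arrays. The unscaled intensities of all 8 summed to 1473, 8120 and 3157, and KRT16 alone gave 4575 of the dexamethasone sum. Against untreated, 5 of 7 measured basal markers were called higher and 0 lower with dexamethasone (median 2.73). With the combination 2 of 5 were higher and 1 lower (median 0.77). KRT5, KRT16 and CRYAB were undetected untreated, so they were measured only through a treated array and could not be called lower. KRT5 and KRT16 were undetected on the combination array too and dropped out there, so the medians cover different genes. All 10 luminal markers were detected on each array, with summed unscaled intensities of 68760, 64840 and 74110. After normalization 5 of the 10 were called lower and 0 higher with dexamethasone (median -1.13), ESR1 at -1.73 and GATA3 at -1.59 among them. With the combination 5 were lower and 0 higher (median -0.94), with ESR1 at -1.01 and GATA3 at -1.0 on the edge of the rule. Of all measured genes 5.73% were called higher and 4.57% lower with dexamethasone, and 5.84% and 5.43% with the combination. Between the treated arrays 0 of 7 basal markers were higher and 4 lower (median -1.38). KRT5 and KRT16, undetected on the combination array, could not be called higher there. The luminal list held 1 higher and 1 lower gene of 10, with a median of -0.04. Of all measured genes 2.99% were called higher and 3.58% lower in this comparison. Of 8 adipocyte markers 2, 3 and 2 were detected. The unscaled intensities of all 8, undetected ones included, summed to 1741, 2126 and 2187. No measured adipocyte marker was called in any comparison, with medians of 0.0, -0.32 and 0.0. LEP and CD36 were detected on all 3 arrays and CIDEC on the dexamethasone array alone. ADIPOQ, PLIN1, FABP4, LPL and LIPE were undetected on all 3 arrays. The part of basal or luminal state in the enzyme values was not tested.

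The promoter table held 15 windows of 300 bases for the 10 genes, ACSL3 included, with 5 windows for ACSL1, 2 for FADS2 and 1 for each other gene. Each was searched on both strands for CACCCCAC, the core of the first sterol regulatory element, for the E-box CACGTG, for the CCAAT box, for the GC box GGGCGG, for AGAACA, a half-site of the glucocorticoid receptor, and for AGGTCA, a half-site of many other nuclear receptors. No motif contains another, and matches overlapped in 2 windows. The sterol element core was present in 1 of 15 windows, an ACSL1 window with 2 matches, and in 2.79% of all 35116 windows in the table. The E-box was present in the ELOVL5 window alone, at -211 to -206 bases from the start, and in 7.26% of all windows. The CCAAT box occurred in 7 of 15 windows (34.6% of all), the GC box in 10 (45.0%), AGAACA in 1, again of ACSL1 (14.8%), and AGGTCA in that of ELOVL6 alone (13.8%).

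In the sequences shown above, the FADS1 capitals are 2 GC boxes, those of FADS2 a GC box and a CCAAT box, those of ELOVL5 the E-box and 2 CCAAT boxes, and those of ELOVL6 a half-site and a GC box, each read on either strand. A match describes letters in the window and no binding was measured, and a window without a match says nothing about sites elsewhere. The start that HCC1937 cells use was not measured, which matters most for the 5 windows of ACSL1.

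**Figure D5:**
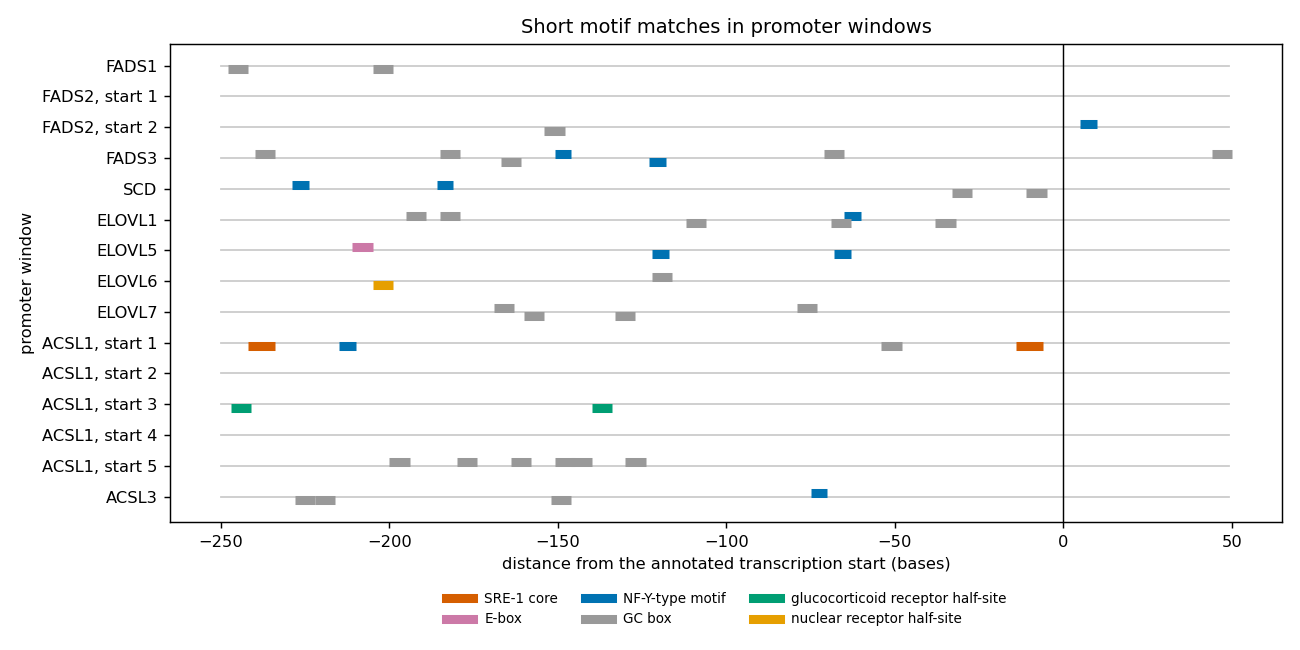
Matches of the 6 motifs (coloured bars, above the line on the strand of the gene and below it on the other) in the 15 promoter windows, by distance from the annotated start (horizontal axis, bases). Windows of a gene with several starts are numbered by position along the chromosome, and the sterol element core is seen in an ACSL1 window alone.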

How the data were processed

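Total RNA was extracted with Trizol, cleaned and labelled with biotin as cRNA, as the labels' protocols state. The deposited bead table gives, per the file headers, the mean intensity of each probe, the number of beads, the standard error over beads and a detection p-value. These intensities were not scaled between arrays, as the deposited values show. A second deposited table holds linear intensity values that look quantile normalized with the background kept. The software is not given in the sources used here.

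With limma 3.58.1 in R 4.3.3, normexp background correction used the detection p-values and an offset of 16, followed by quantile normalization and log2. Python 3.11.15, numpy 2.4.6, pandas 2.3.3 and matplotlib 3.10.9 did the rest. The platform annotation gave 1 symbol to 30109 of 30117 probes. Its gene identifiers matched RefSeq genes of GRCh38.p14 for 30070, and 0 symbols changed. The probe with the highest mean stood for a gene. A gene was measured where that probe was detected on at least 1 of the 2 arrays. An undetected side was set to the lowest value detected on that array, or kept its own value if that was higher. A difference whose sign then went against detection was set to 0. Bead SEs were carried to the log2 scale from background-corrected values.

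The genes, lists and rules were chosen with earlier results of these data known. Named genes are the 10 studied, up to 6 called per list, and a fixed set of 8 pathway genes and 8 markers. MBTPS1, EGFR and the adipocyte markers were named outside this rule. The procedure was tested on simulated arrays, in which only genes bright on the untreated array were changed. That test does not cover genes as dim untreated as FADS3, ELOVL7, ACSL1 and ELOVL1. Intervals between cultures cannot be given, since the number of arrays limits the precision. In all, 9 alternatives were fixed at the start and 1 was added after seeing the data.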

Additional observations from a re-analysis of the deposited data

How the results depend on the processing

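With 1 array per group nothing could be left out and no batch term could be fitted. Of 130 values of the 13 called differences under 10 alternatives, 130 had the same sign and 115 were past 2-fold. Many of these repeat the main value, since detection, bound and probe settings could not move a single-probe gene detected on both arrays. Among all 240 values 1 had the other sign, FADS1 between the treated arrays (0.09 with scaling to the 75th percentile of all probes, against -0.01). No call turned its direction.

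For dexamethasone against untreated, the authors' normalized values called 3 of the genes higher, against 5. No background correction, an offset of 50 and the authors' values each called 1 lower, against 2. The median of the genes was 0.93 without background correction, 0.87 with the authors' values, and 1.02 both with a detection limit of 0.05 and with no detection filter, which bring in FADS2. For the combination against untreated, the same 4 settings gave medians of 0.34, 0.31, 0.26 and 0.26, against 0.72. For the combination against dexamethasone, 0 genes were higher without background correction, 1 with the authors' values and 1 with the 75th percentile of detected probes, under which 1 was lower.

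Counts over all genes changed likewise. In the order of the comparisons, 306, 271 and 108 were higher and 177, 241 and 153 lower without background correction, and 289, 257 and 105 higher and 165, 221 and 145 lower with the authors' values. Main counts were 622, 625 and 321 higher and 496, 581 and 384 lower. An offset of 50 gave 325 lower in the first and 198 higher in the third. Counts in the other 5 lists stayed between 0 and 3 under every alternative.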
